A study of Mus musculus with 8 samples.

Results

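The Sox, Gata and T-box genes encode 3 families of DNA-binding factors, and their 5hmC peaks were described here in ESCs, MEFs, brain and liver and in ESCs carrying a hairpin against the Polycomb subunit Suz12. Members were chosen among the 22367 protein-coding genes of the mm9 annotation by a symbol of Sox, Gata or Tbx followed by a number and, where present, a or b. They are 34 genes: 16 Sox, 6 Gata and 12 Tbx. Sox4 has 2 entries in the annotation, so 35 entries met the rule; the longer one was kept, and the shorter one held no peak in any library. No measured value is part of the rule.

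The measurement was GLIB-Seq, in which a glucose is attached to each 5hmC, opened with periodate and coupled to biotin, so that fragments carrying 5hmC are pulled down and sequenced. Each condition had 1 library: untreated ESCs of the E14 mouse line, MEFs from C57BL/6 embryos (embryonic day 11 in the sample labels, where the methods give a later day), brain and liver of C57BL/6 mice of 8 weeks, and E14 ESCs that received a control hairpin directed at GFP (shGFP) or one directed at Suz12 (shSuz12). The labels do not say which Suz12 hairpin was used, how many animals gave each tissue or whether cells were pooled. With 1 library a condition no spread between replicates exists, so no difference between libraries was tested and each count below is a description of these 6 libraries. No expression value was used, so neither the tissue labels nor the loss of Suz12 were checked against marker genes.

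The deposited lists give the position of each peak and a score that grows as its p-value falls (10 × the negative log10 of p). They held 130408 to 217025 nuclear peaks that covered 83.5 Mb (shSuz12) to 208 Mb (MEF). The lowest score was 80 in ESC and liver, 50.0 in shGFP, 30.3 in shSuz12 and 30 in MEF and brain, so a weak peak could enter some lists and not others, and the number of reads behind a peak is unknown. Peaks were scarce on chromosome X, where 0.966% (brain) to 17.6% (shSuz12) of the protein-coding genes had a peak in the gene, against 60.3% (liver) to 70.1% (ESC) on the autosomes. The X-linked Gata1, Sox3 and Tbx22 can therefore hardly be compared with the other 31 members.

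Sox proteins bind DNA through an HMG box, Gata proteins through zinc fingers that read the sequence after which they are named, and Tbx proteins through the T-box. They are regulators of development: Gata and Sox factors direct endoderm, heart, blood and cartilage, and T-box factors pattern mesoderm, limbs and heart. Many genes of this kind are held silent in ESCs by Polycomb repressive complex 2, of which Suz12 is a core subunit, while 5hmC itself is made from 5-methylcytosine by Tet enzymes, of which Tet1 is prominent in ESCs.

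The stretches of mm9 sequence below lie inside promoter peaks, and each CpG, the dinucleotide in which most cytosine methylation and 5hmC occur, is in capitals. They are read 5′ to 3′ on the strand of the gene. Shown first are the 4 members with most promoter bp under peaks in ESC, of which Gata4 also belongs to the second set: Tbx4 at chr11:85699541-85699840 (plus strand, -383 to -84 bp from the TSS), Tbx10 at chr19:3992176-3992475 (plus, -576 to -277 bp), Tbx6 at chr7:133924759-133924996 (plus, -238 to -1 bp) and Gata4 at chr14:63890534-63890833 (minus, -304 to -5 bp).
Tbx4: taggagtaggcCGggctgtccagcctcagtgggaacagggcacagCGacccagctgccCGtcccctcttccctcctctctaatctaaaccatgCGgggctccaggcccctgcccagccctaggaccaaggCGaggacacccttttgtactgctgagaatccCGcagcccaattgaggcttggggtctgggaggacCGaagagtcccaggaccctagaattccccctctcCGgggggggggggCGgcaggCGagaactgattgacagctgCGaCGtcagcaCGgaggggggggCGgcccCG
Tbx10: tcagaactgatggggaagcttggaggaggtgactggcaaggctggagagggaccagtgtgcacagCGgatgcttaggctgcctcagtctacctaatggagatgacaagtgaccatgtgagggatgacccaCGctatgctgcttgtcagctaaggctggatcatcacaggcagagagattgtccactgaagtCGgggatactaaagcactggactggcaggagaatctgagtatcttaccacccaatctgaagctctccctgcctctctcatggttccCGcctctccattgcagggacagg
Tbx6: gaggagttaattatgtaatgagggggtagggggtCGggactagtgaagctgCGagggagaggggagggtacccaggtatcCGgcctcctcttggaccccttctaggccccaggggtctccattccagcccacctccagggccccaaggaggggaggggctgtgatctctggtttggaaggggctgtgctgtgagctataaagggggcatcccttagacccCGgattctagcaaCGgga
Gata4: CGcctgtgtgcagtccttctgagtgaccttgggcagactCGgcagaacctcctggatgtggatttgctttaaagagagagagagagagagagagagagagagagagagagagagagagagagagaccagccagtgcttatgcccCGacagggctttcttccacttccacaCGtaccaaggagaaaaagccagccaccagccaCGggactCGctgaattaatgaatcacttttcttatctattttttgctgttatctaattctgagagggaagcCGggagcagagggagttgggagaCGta
The second set lies in peaks found in ESC and shGFP at promoters without a peak in shSuz12. Gata2 is shown at chr6:88143583-88143882 (plus, -302 to -3 bp from the TSS), Sox8 at chr17:25706708-25707007 (minus, 624 to 923 bp, in an intron) and Sox7 at chr14:64562939-64563238 (plus, 428 to 727 bp, in an intron).
Gata2: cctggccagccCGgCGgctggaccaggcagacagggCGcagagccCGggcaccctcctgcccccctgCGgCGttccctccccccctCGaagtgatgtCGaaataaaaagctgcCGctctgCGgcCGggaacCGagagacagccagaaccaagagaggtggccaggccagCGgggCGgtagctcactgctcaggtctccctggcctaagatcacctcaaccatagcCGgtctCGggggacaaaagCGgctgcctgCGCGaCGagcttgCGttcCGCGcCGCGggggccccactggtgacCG
Sox8: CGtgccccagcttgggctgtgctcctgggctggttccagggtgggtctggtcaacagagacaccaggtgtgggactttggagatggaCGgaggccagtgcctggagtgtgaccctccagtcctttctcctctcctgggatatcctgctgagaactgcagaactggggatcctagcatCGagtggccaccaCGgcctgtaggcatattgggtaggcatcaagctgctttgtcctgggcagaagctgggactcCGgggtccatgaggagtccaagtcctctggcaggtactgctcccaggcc
Sox7: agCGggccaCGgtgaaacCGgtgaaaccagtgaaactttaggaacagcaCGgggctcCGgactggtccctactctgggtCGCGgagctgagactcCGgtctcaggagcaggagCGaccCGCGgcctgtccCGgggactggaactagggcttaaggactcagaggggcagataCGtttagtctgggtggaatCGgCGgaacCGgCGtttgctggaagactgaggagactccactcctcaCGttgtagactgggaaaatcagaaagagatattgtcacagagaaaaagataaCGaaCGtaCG
The stretches differ widely in CpG: 26 in Gata2, 21 in Sox7 and 15 in Tbx4, but 8 in Gata4, 5 in Tbx6 and in Sox8 and 4 in Tbx10. The ESC peak that begins with the Tbx6 stretch was 2391 bp wide with a score of 915, and the one over the Gata2 stretch was 1321 bp wide with a score of 279.

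Promoters of Sox, Gata and Tbx genes carried 5hmC peaks in ESCs more often than promoters in general, and within 1 kb of the TSS seldom did so in MEFs. A promoter is here the 2000 bp centred on the TSS, taken as the 5′ end of the annotated gene, and it counted when a peak met it by at least 1 bp. In ESC 17 of the 34 members had a promoter peak (50.0%), against 31.9% of all protein-coding genes. In MEF 3 did (8.82%, against 30.1%), in brain 6 (17.6%, against 20.0%) and in liver 7 (20.6%, against 29.4%). The ESCs with hairpins had 18 in shGFP (52.9%, against 27.1%) and 13 in shSuz12 (38.2%, against 21.4%), above all genes as in untreated ESC. The ESC and liver lists begin at a higher score than the others. When each list was held to a score of at least 80, 17 ESC promoters stood beside 1 in MEF (12.0% of all genes), 1 in brain (5.45% of all genes) and 7 in liver. The low MEF and brain counts depended on the window. With 2 kb on each side of the TSS, 9 members had a peak in MEF (26.5%, against 42.1% of all genes) and 11 in brain (32.4%, against 32.3%). Near any annotated start of the gene, a choice made after the data had been seen, 10 did in MEF (29.4%, against 40.6%) and 11 in brain (32.4%, against 34.9%).

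**Figure D1:**
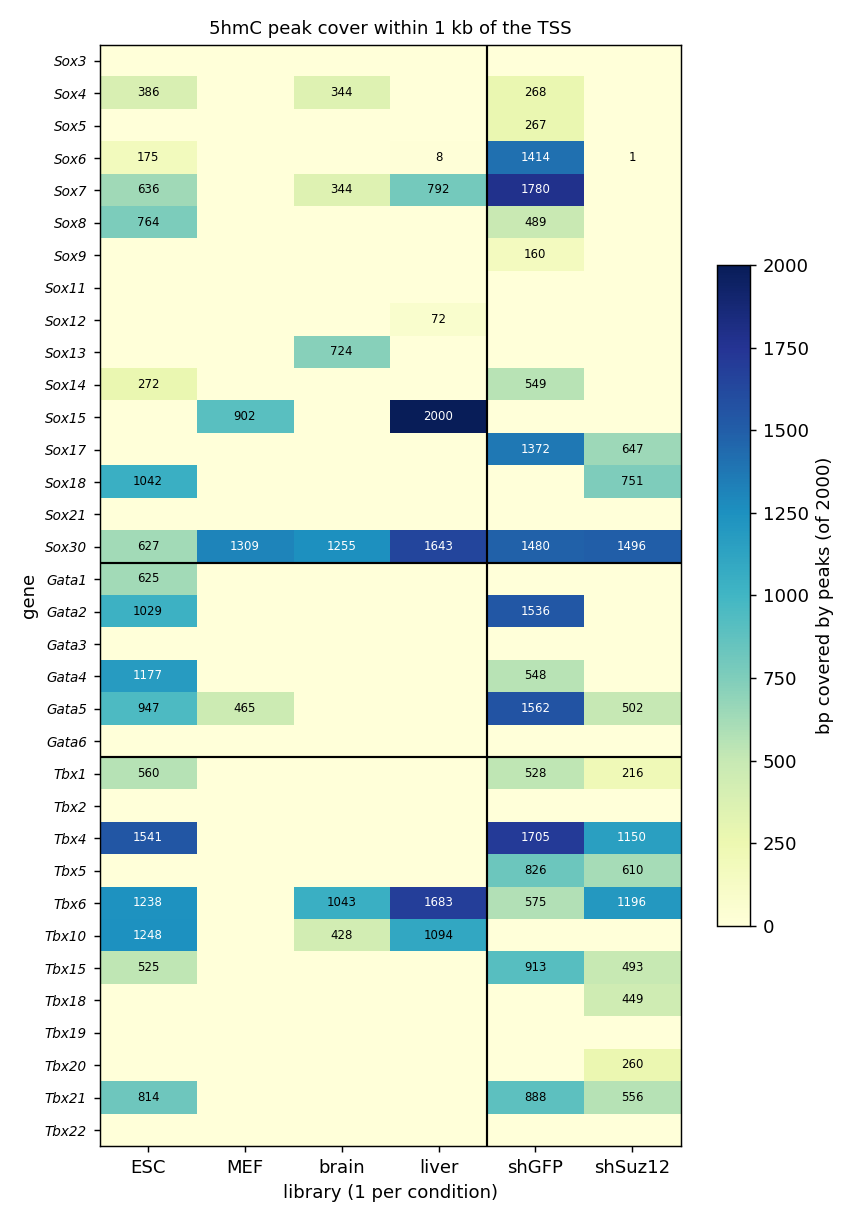
Bp covered by 5hmC peaks within 1 kb of the TSS (2000 bp in all; colour scale and printed values in bp, no number where no peak lies) for the 34 genes (vertical axis, by family) in the 6 libraries (horizontal axis, 1 library per condition). The ESC, shGFP and shSuz12 columns hold 17, 18 and 13 covered promoters and the MEF, brain and liver columns 3, 6 and 7, and Sox30 is covered in each of the 6 libraries.

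Of the 17 promoters covered in ESC, 15 had no peak in MEF (88.2%, against 47.6% of all ESC promoters), 12 none in brain (70.6%, against 59.3%) and 12 none in liver (70.6%, against 53.9%). Across the 3 together, 10 had no peak in MEF, brain or liver: Gata1, Gata2, Gata4, Sox8, Sox14, Sox18, Tbx1, Tbx4, Tbx15 and Tbx21. That is 29.4% of the members, against 7.62% of all genes. With each list held to a score of at least 80 the count was 12, against 13.3% of all genes. The 5′ end of the gene is 1 choice of start among several. When a peak near any annotated start of the gene counted, the class held 6 members (Gata1, Gata2, Sox14, Sox18, Tbx15 and Tbx21), against 6.40% of all genes. A further 7 members (Gata5, Sox4, Sox6, Sox7, Sox30, Tbx6 and Tbx10) had a promoter peak in ESC and in at least 1 of the other 3 (24.3% of all genes), and Sox12, Sox13 and Sox15 had one in MEF, brain or liver but not in ESC, against 23.7% of all genes.

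The 3 Gata genes among the 10 belong to blood, heart and endoderm. Gata2, needed by blood stem and progenitor cells, had 1029 bp of its promoter covered in ESC, 0 bp in MEF, brain and liver, 1536 bp in shGFP and 0 bp in shSuz12. Its ESC peak ran from -1292 to 28 bp of the TSS. The gene itself held no peak at all in MEF, brain and liver, whereas 46.9% of it was covered in ESC, 54.7% in shGFP and 33.5% in shSuz12, so that the 3 ESC libraries alone held peaks within the gene. Gata4, a factor of heart and endoderm, had 1177 bp of its promoter covered in ESC, by peaks with scores of 81.3 and 227, 548 bp in shGFP and 0 bp in the other 4 libraries. Gata1, the X-linked regulator of red blood cells and platelets, had 625 bp covered in ESC, from a peak with a score of 84.8 close to the lowest of that list, and 0 bp in each other library.

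Sox8, a neural crest and glial factor related to Sox9, had 764 bp of promoter covered in ESC, 489 bp in shGFP and 0 bp elsewhere. Sox14, found in neurons, had 272 bp in ESC, 549 bp in shGFP and 0 bp in the other libraries. Sox18, an endothelial factor of blood and lymph vessels, had 1042 bp in ESC, 751 bp in shSuz12 and 0 bp in MEF, brain, liver and shGFP. The promoter of Sox18 was thus covered in ESC and shSuz12 but not in the control of the knockdown. Just outside the window, a shGFP peak with a score of 93.85 ran from 1078 to 1804 bp after the TSS. Over the gene itself, shGFP covered 40.3% and shSuz12 33.2%. Of the 17 ESC promoters, 3 (17.6%: Gata1, Sox18 and Tbx10) had no peak in shGFP, against 32.0% of all ESC promoters. Neither ESC nor shGFP had Suz12 targeted, and the 2 come from the same line.

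The 4 Tbx genes of the class were covered in each of the 3 ESC libraries. Tbx4, a gene of the hindlimb, had 1541 bp of promoter covered in ESC, 1705 bp in shGFP and 1150 bp in shSuz12. Tbx21, which encodes T-bet of helper T cells, had 814, 888 and 556 bp in the same order. Tbx1, a gene of the pharyngeal arches and heart outflow tract, had 560, 528 and 216 bp, and Tbx15, of skeleton and skin patterning, had 525, 913 and 493 bp. The TSS used for Tbx15 is the start of no protein-coding transcript. Around its coding start, 13379 bp farther on, 164 bp were covered in ESC, 401 bp in shGFP and 0 bp in shSuz12. In MEF, brain and liver all 4 promoters were at 0 bp. The gene of Tbx4 was nonetheless covered in MEF (21.6% of the gene) and brain (25.0%), from 11031 bp after the TSS onwards in MEF, while in ESC peaks ran from the TSS to the end of the gene (44.5%). In liver 1 peak covered 2.16% of the gene.

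Among the most covered ESC promoters, Tbx10 and Tbx6 were shared with other tissues. Tbx6, a gene of the presomitic mesoderm, had 1238 bp in ESC, 0 bp in MEF, 1043 bp in brain, 1683 bp in liver, 575 bp in shGFP and 1196 bp in shSuz12. Tbx10, a relative of Tbx1, had 1248, 0, 428, 1094, 0 and 0 bp in the same order, covered in ESC, brain and liver but in neither hairpin library. Sox30, a gene of sperm development, was the 1 member covered in each library, with 627, 1309, 1255, 1643, 1480 and 1496 bp. Sox15 was covered only outside ESCs, with 902 bp in MEF and all 2000 bp in liver, where a peak of 4471 bp and a score of 1428 ran from -3443 to 1027 bp of the TSS. A peak lay over the TSS itself in 6 members in ESC (11.8% of all genes), 10 in shGFP (11.2%) and 3 in shSuz12 (5.83%). In MEF it did so in 1 member (6.87%), in brain in 2 (4.46%) and in liver in 4 (5.38%).

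Members with and without an ESC promoter peak had similar median CpG counts, but the highest counts lay among those without. The members' 2000-bp windows held a median of 115.5 CpGs, against 60 for all genes. The median was 119 in the 17 members with an ESC peak (range 23 to 147) and 112 in the 17 without (range 10 to 234). Promoters were classed by the ratio of observed to expected CpG and the GC content of 500-bp windows. A high-CpG promoter was found in 21 members (47.9% of all genes), an intermediate in 8 (20.3%) and a low one in 5 (31.9%). Of the 21 high-CpG members, 11 had a peak in ESC (29.4% of all high-CpG genes), 2 in MEF (33.9%), 4 in brain (20.2%), 3 in liver (39.5%), 12 in shGFP (25.1%) and 7 in shSuz12 (19.0%). In this class 7 of the 21 were covered in ESC and in none of MEF, brain and liver, against 6.49% of all high-CpG genes. Within the genes, the covered bases of all members together held 22.4 CpGs per kb in ESC and the uncovered ones 11.0. Sox5 and Sox6 supply most of the uncovered bases, and without them the values were 23.8 and 16.4. Member by member, the covered bases were the richer in CpG in 15 of the 24 members with at least 500 bp of each kind in ESC and in 10 of 17 in brain. In MEF, brain and liver the covered bases held 14.9 to 15.7 CpGs per kb, and in shGFP and shSuz12 25.5 and 26.8. The CpG content of covered and uncovered bases was not computed over all genes, so these values are not a result about the members.

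Peak cover of the members extended to both sides of the TSS. In the 1 kb before the TSS, 22.2% of the members' bases were in a peak in ESC, against 13.1% over all genes, and from 1 to 3 kb after it 29.1%, against 16.4%. In MEF the members were below all genes at both places, with 3.16% against 10.8% and 8.75% against 13.5%. In shGFP the values before the TSS were 26.0% against 10.9%, and in shSuz12 16.6% against 6.17%. The 1 kb after the TSS was at 17.8% against 12.9% in ESC and 4.71% against 8.96% in MEF. There shGFP had 23.5% against 11.1%, while in shSuz12 the members were closer to all genes, at 7.94% against 5.73%. From 10 to 5 kb before the TSS, members and all genes were closer, at 14.5 and 12.8% in ESC, 8.27 and 7.60% in MEF and 11.1 and 8.43% in shGFP. From 5 to 10 kb after the TSS they were at 20.9 and 16.4% in ESC, 12.2 and 9.96% in MEF and 19.6 and 10.4% in shGFP, so that in shGFP the members stayed above all genes on that side. The members' curves rest on 34 genes and are correspondingly uneven.

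**Figure D2:**
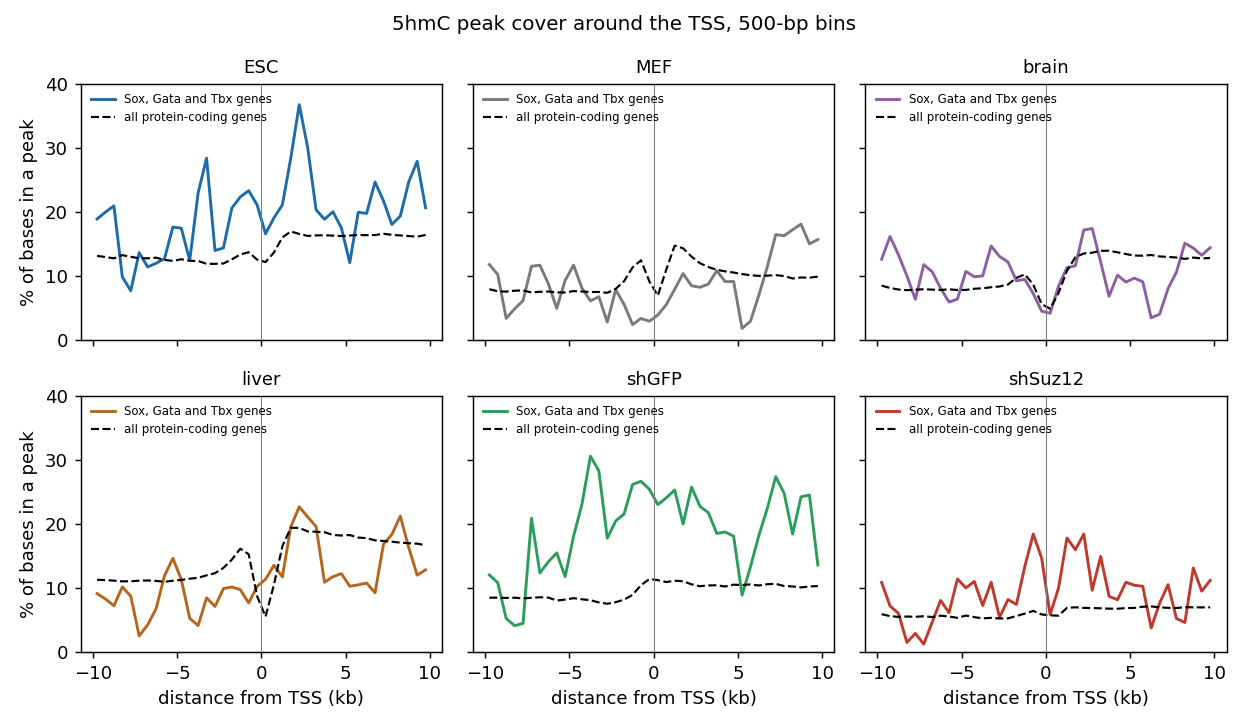
Percentage of bases under a 5hmC peak (vertical axis) in 500-bp bins up to 10 kb on either side of the TSS (horizontal axis, kb, in the direction of transcription), for the 34 Sox, Gata and Tbx genes (coloured line) and all protein-coding genes (dashed line) in each of the 6 libraries. The members lie above all genes around the TSS in ESC, shGFP and shSuz12 and below them in MEF. In shSuz12 the first 500 bp after the TSS are nearly equal, at 5.86% against 5.75%. In MEF they reach 3.16% in the 1 kb before the TSS, against 10.8%.

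Over the whole gene, the cover of the members differed between libraries. A peak lay somewhere in the gene in 27 of 34 members in ESC (67.8% of all genes), 21 in MEF (61.0%), 17 in brain (60.7%), 15 in liver (57.9%), 26 in shGFP (63.4%) and 24 in shSuz12 (63.0%). The median share of the gene under peaks was 12.2% in ESC, 6.79% in MEF, 0.361% in brain and 0% in liver, against 8.77, 4.43, 6.43 and 4.44% over all genes. Among the genes with at least 500 bp covered in 1 of the 2 libraries, the share covered was at least 2-fold higher in ESC than in brain in 14 of 26 members (53.8%, against 30.6% of all genes tested) and at least 2-fold lower in 2 (21.4% of all genes). Against liver, 15 of 27 were higher in ESC (55.6%, against 35.5%) and 7 lower (25.9%, against 26.5%). Against MEF, 13 of 27 were higher (48.1%, against 42.6%) and 5 lower (18.5%, against 19.1%), both close to the background.

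**Figure D3:**
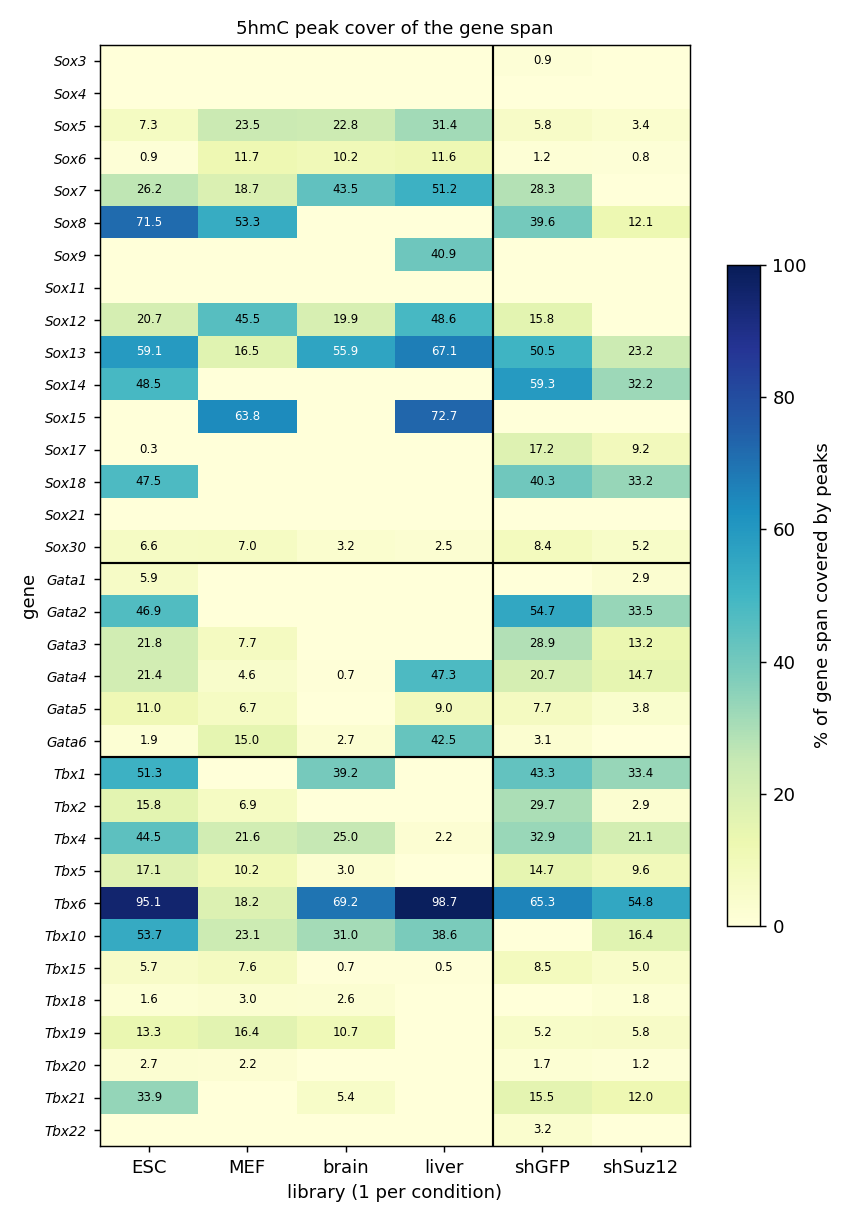
Percentage of the gene covered by 5hmC peaks (colour scale and printed values, no number where no peak lies) for the 34 genes (vertical axis, by family) in the 6 libraries (horizontal axis, 1 library per condition). Tbx6 and Sox13 are covered in all 6 libraries, Gata2 in the 3 ESC libraries alone, and Sox4, Sox11 and Sox21 in none.

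Tbx6 and Sox13 were the genes with high cover in most libraries. Of the 4078 bp of Tbx6, 95.1% was under peaks in ESC, 18.2% in MEF, 69.2% in brain, 98.7% in liver, 65.3% in shGFP and 54.8% in shSuz12. In ESC 99.2% of all protein-coding genes had a lower share covered. Sox13, a SoxD factor with a role in T cells, was covered over 59.1, 16.5, 55.9, 67.1, 50.5 and 23.2% in the same order. Both genes had their lowest value in MEF. Sox8 was at 71.5% in ESC and 53.3% in MEF, 0% in brain and liver, 39.6% in shGFP and 12.1% in shSuz12. Tbx1 was covered in ESC (51.3%), brain (39.2%), shGFP (43.3%) and shSuz12 (33.4%) and not in MEF or liver. Tbx10 was covered in ESC (53.7%), MEF (23.1%), brain (31.0%), liver (38.6%) and shSuz12 (16.4%) and at 0% in shGFP.

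The genes with more cover outside ESCs included the longest, Sox5 and Sox6, and short ones such as Sox12 (4.44 kb) and Sox15 (1.41 kb). Sox5 (953.6 kb) and Sox6 (567.4 kb), SoxD factors that act with Sox9 in cartilage, were at least 2-fold lower in ESC than in each of MEF, brain and liver. Sox5 held 75 peaks in ESC (7.33% of the gene), 234 in MEF (23.5%), 176 in brain (22.8%) and 235 in liver (31.4%), beside 65 in shGFP (5.80%) and 57 in shSuz12 (3.36%). Sox6 held 6 peaks in ESC (0.887%), 79 in MEF (11.7%), 54 in brain (10.2%) and 61 in liver (11.6%), beside 8 in shGFP (1.17%) and 9 in shSuz12 (0.835%). The 3 ESC libraries thus stayed below the other 3 in both genes. The MEF and brain lists reach to lower scores, and in Sox5 76 of 234 peaks in MEF and 34 of 176 in brain had a score of at least 80. By that score Sox5 held fewer peaks in brain (34) than in ESC (75). In Sox6, 21 peaks in MEF, 8 in brain and 61 in liver reached that score, against 6 in ESC.

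Sox12, a SoxC factor of neural and mesenchymal progenitors, had 1 peak in each library but shSuz12, which covered 20.7% of the gene in ESC, 45.5% in MEF, 19.9% in brain, 48.6% in liver and 15.8% in shGFP. Sox15 was covered over 63.8% in MEF and 72.7% in liver and not at all in the other libraries. The end of Sox15 overlaps the opposite-strand gene Mpdu1 by 31 bp, and a peak has no strand. Sox7, an endothelial factor, was covered over 26.2% in ESC, 18.7% in MEF, 43.5% in brain, 51.2% in liver, 28.3% in shGFP and 0% in shSuz12.

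Liver stood out at Gata4 and Gata6, 2 of the Gata genes of endoderm and heart, but not at Gata5 of the same group. Gata5 was covered over 8.99% in liver and 11.0% in ESC. Gata4 held 26 peaks in liver, with 34437 bp or 47.3% of the gene covered, against 17 peaks and 21.4% in ESC, 4 peaks and 4.60% in MEF, 1 peak and 0.728% in brain, 11 peaks and 20.7% in shGFP, and 16 peaks and 14.7% in shSuz12. The liver peaks began 11461 bp after the TSS and ran to the end of the gene, while the ESC peaks began at the TSS. Other coding transcripts of Gata4 start farther on, the nearest 568 bp after the TSS and a group from 26421 bp after it. Around the start at 568 bp, 1725 bp were covered in ESC, 612 bp in shGFP and 63 bp in shSuz12. MEF, brain and liver had 0 bp there. Around the first start of that group the cover was 600 bp in ESC, 0 bp in MEF and brain, 14 bp in liver, 1261 bp in shGFP and 239 bp in shSuz12. Around a later coding start, 58085 bp after the TSS, 1486 bp were covered in liver and 0 bp in the other 5 libraries. In liver the cover of Gata4 thus included the last of these starts and hardly the others.

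Gata6, a factor of endoderm and heart that was chosen for description after its values had been seen, showed this contrast more sharply. It held 13 peaks in liver, which covered 42.5% of the gene, 6 in MEF (15.0%), and 1 each in ESC (1.86%), brain (2.74%) and shGFP (3.09%), and none in shSuz12. The scores of the liver peaks were 84.2 to 771, with a median of 191, and the single ESC peak had 91.5. No library had a peak at the promoter of Gata6. Sox9, a factor of cartilage that also marks bile duct cells of the liver and was likewise chosen after its values had been seen, had a peak in the gene in liver alone, of 2266 bp and a score of 528, over 40.9% of the gene. Peaks in bulk liver and brain are a sum over their cell types, and a change in cell shares and a change per cell cannot be told apart.

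**Figure D4:**
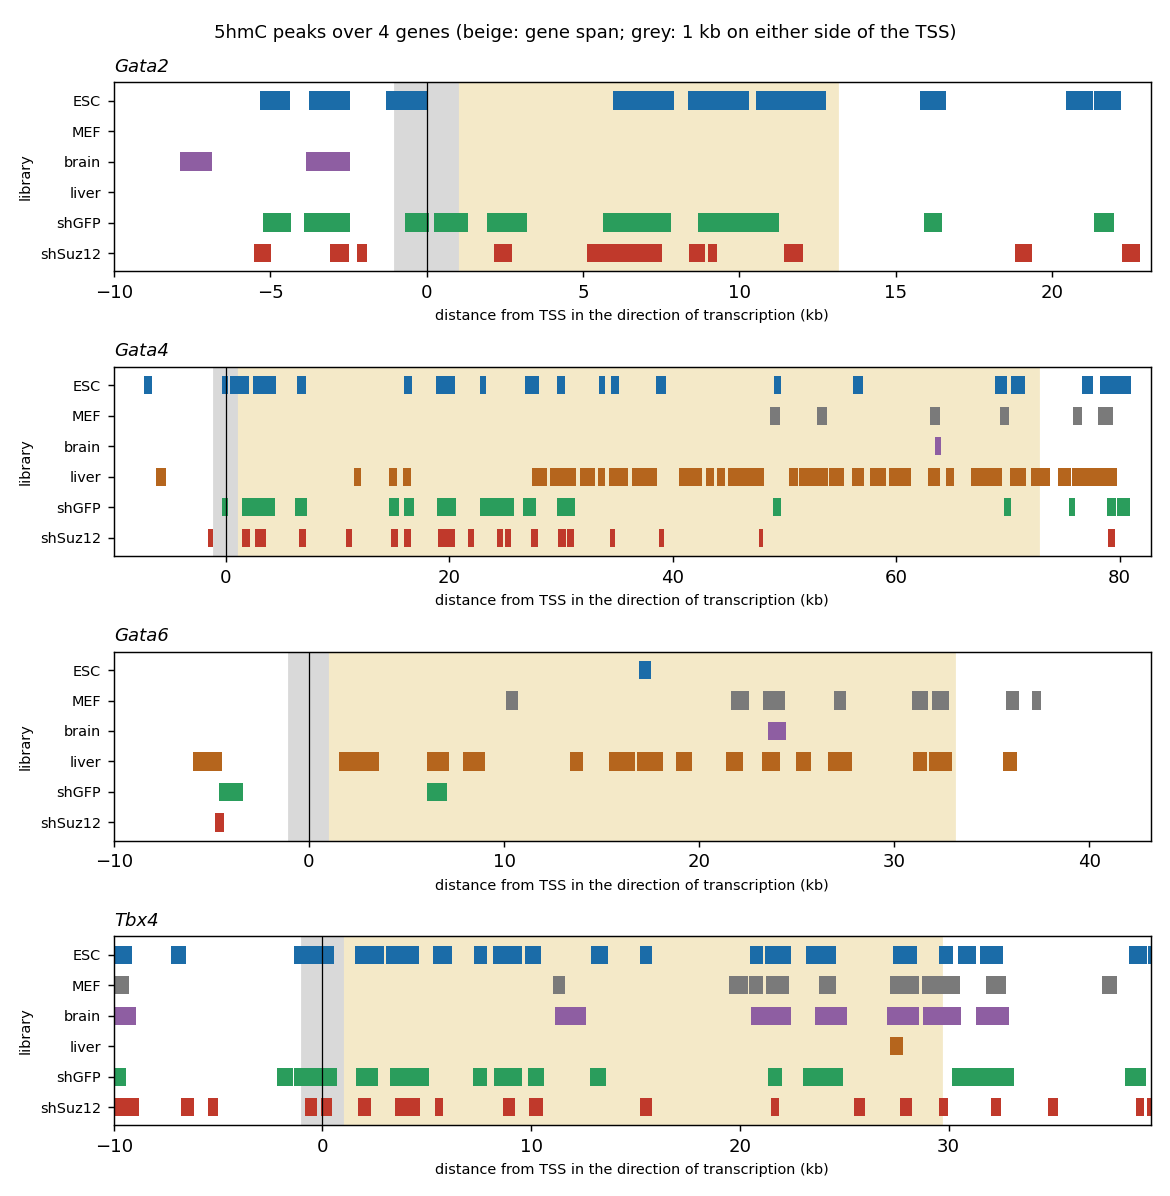
Position of 5hmC peaks (bars) in the 6 libraries (rows) over Gata2, Gata4, Gata6 and Tbx4, against the distance from the TSS in kb in the direction of transcription, with the gene in beige and 1 kb on either side of the TSS in grey. Within the gene, Gata2 holds peaks in the 3 ESC libraries alone, and Gata4 and Gata6 hold 26 and 13 peaks in liver. The MEF and brain peaks within the Tbx4 gene begin 11031 bp or more after the TSS.

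Some members carried no 5hmC peak, or none at the promoter. Sox11, a SoxC factor of neural progenitors, and Sox21, of the SoxB2 group, had no peak in the gene or the promoter in any library, with 206 and 119 CpGs in their promoter windows. They are 5.88% of the members, against 20.0% of all genes. The nearest peak to the TSS of Sox11 was 5483 bp away in MEF, 5757 bp in shGFP, 6831 bp in ESC, 9251 bp in brain, 11797 bp in shSuz12 and 481956 bp in liver. For Sox21 these distances were 6648 bp in shGFP, 7924 bp in ESC, 9632 bp in shSuz12, 11097 bp in brain, 16025 bp in MEF and 73307 bp in liver. In the 3 ESC libraries and brain, peaks thus lay within 12 kb of both genes. Sox4 also had no peak within the gene, but its promoter had 386 bp covered in ESC, 344 bp in brain and 268 bp in shGFP, each by a peak centred more than 1 kb before the TSS. In all, 8 members (23.5%, against 40.6% of all genes) had no promoter peak in any library: Gata3, Gata6, Sox3, Sox11, Sox21, Tbx2, Tbx19 and Tbx22, of which Sox3 and Tbx22 are X-linked.

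Where peaks lay within a gene, their position was partly shared between libraries. The members held 191 ESC peaks, of which 131 (68.6%) were met by a peak in shGFP, against 56.3% of the ESC peaks in all genes, and 106 (55.5%) by one in shSuz12, against 48.3%. MEF and liver each met 77 of them (40.3%, against 48.0 and 46.2% in all genes), and brain 63 (33.0%, against 51.4%). In reverse, ESC met 83 of the 379 MEF peaks (21.9%, against 44.0%). Sox5 alone holds 75 of the 191 ESC peaks and 234 of the 379 MEF peaks, so these shares lean on that gene. In ESC the share covered was higher in exons than in introns in 17 of the 27 members with a peak (63.0%, against 72.1% of all genes), in MEF in 14 of 21 (66.7%, against 51.6%), in brain in 8 of 17 (47.1%, against 63.4%) and in liver in 9 of 15 (60.0%, against 57.8%).

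The comparison of shGFP with shSuz12 asks what becomes of 5hmC at these genes when a Polycomb subunit is targeted. The promoters of the members had 16860 bp covered in shGFP and 8327 bp in shSuz12, 0.494 times as much. Over all genes the ratio was 0.540 and over the whole genome the covered length was 0.689 times as large, so the members' ratio was close to that of promoters in general. Of the 18 members with a promoter peak in shGFP, 8 had none in shSuz12 (44.4%), against 44.1% of all such promoters: Gata2, Gata4, Sox4, Sox5, Sox7, Sox8, Sox9 and Sox14. These 8 are 23.5% of the members, against 12.0% of all genes. By peak midpoints the count was 4 (11.8%, against 9.67%) and near any annotated start 5 (14.7%, against 12.0%), close to all genes. The 5 were Sox4, Sox7, Sox8, Sox9 and Tbx22. Gata2, Gata4, Sox5 and Sox14 thus had a shSuz12 peak near another annotated start. The 5′ end of Sox5 is the start of no protein-coding transcript. In the other direction, 3 of the 13 promoters covered in shSuz12 had no peak in shGFP (23.1%, against 29.2%; 6.25% of all genes): Sox18, Tbx18 and Tbx20. Counted from untreated ESC, 8 of its 17 covered promoters had no peak in shSuz12, the same share as over all genes (47.1%). With a score of at least 80 in both lists, 13 of 16 shGFP promoters had no peak in shSuz12, against 78.7% of all promoters with a shGFP peak.

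The 5 members with the largest deficit in shSuz12 were Sox and Gata genes. Sox7 had 1780 bp in shGFP and 0 bp in shSuz12, Gata2 1536 and 0 bp, Sox6 1414 and 1 bp, Gata5 1562 and 502 bp, and Sox17, a factor of definitive endoderm, 1372 and 647 bp. In untreated ESC the same promoters had 636 bp (Sox7), 1029 bp (Gata2), 175 bp (Sox6), 947 bp (Gata5) and 0 bp (Sox17), so that the shGFP library exceeded untreated ESC at each of the 5. The 2000 bp around the start of Gata5 lie wholly within the opposite-strand gene Gm14318, and its peaks cannot be given to 1 of the 2. For Sox7 the nearest shSuz12 peak was 19461 bp before the TSS, and for Gata2 1903 bp before it. For Sox6 a shSuz12 peak with a score of 161 ran from 999 to 1771 bp after the TSS, almost wholly outside the window, where shGFP had one from 894 to 1819 bp with a score of 128. The nearest shSuz12 peak also lay close in Sox14 (1032 bp after the TSS) and Gata4 (1157 bp before it), just outside the window, and 3232 bp after the TSS in Sox8.

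**Figure D5:**
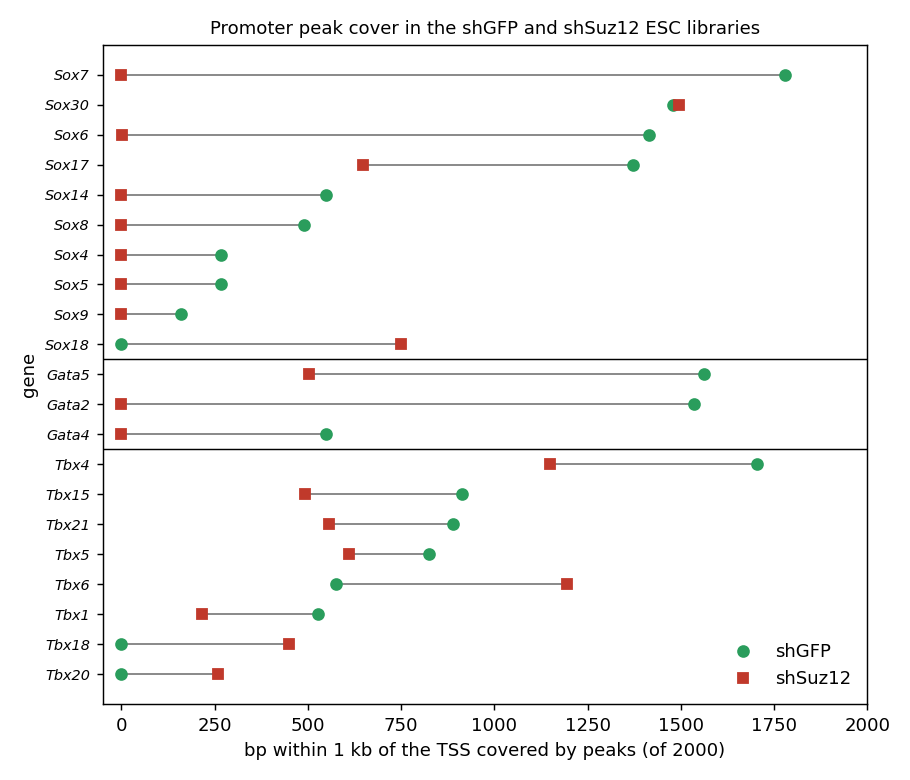
Bp within 1 kb of the TSS covered by 5hmC peaks (horizontal axis, of 2000) in shGFP (circles) and shSuz12 (squares) for the 21 genes covered in either library (vertical axis, by family), 1 library per condition. In the Sox and Gata families 11 of 13 genes have less in shSuz12, and in the Tbx family 5 of 8.

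The 3 families had different ratios, which were not tested against each other. The summed promoter cover in shSuz12 was 0.372 times that in shGFP over the Sox genes (7779 and 2895 bp), 0.138 times over the Gata genes (3646 and 502 bp) and 0.907 times over the Tbx genes (5435 and 4930 bp). For Sox, 9 promoters had a peak in shGFP and 4 in shSuz12, for Gata 3 and 1, and for Tbx 6 and 8. Of the members covered in either library, 8 of 10 Sox, 3 of 3 Gata and 5 of 8 Tbx genes had less in shSuz12, together 16 of 21 (76.2%), against 72.6% of all promoters covered in either. The higher Tbx value rested on peaks of low score: at a score of at least 80, 6 Tbx promoters had a peak in shGFP and 1 in shSuz12, beside 8 and 2 for Sox and 2 and 0 for Gata. The 5 members with more promoter cover in shSuz12 were Sox18 (0 bp in shGFP and 751 bp in shSuz12), Tbx6 (575 and 1196 bp), the heart and ureter gene Tbx18 (0 and 449 bp), the heart gene Tbx20 (0 and 260 bp) and Sox30 (1480 and 1496 bp).

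Across whole genes, most members had lower cover in shSuz12, as did most genes. Of 29 members with any cover in either library, 25 had less in shSuz12 (86.2%, against 72.1% of all genes covered in either) and 4 had more (Gata1, Tbx10, Tbx18 and Tbx19). All 11 Sox genes among them had less. By the 2-fold rule 9 of 28 members were lower (32.1%, against 28.0% of all genes tested) and 3 were higher, Gata1, Tbx10 and Tbx18 (10.7%, against 9.58%), both near the background. The ratio of the summed cover was 0.585 for the members and 0.706 for all genes. The lower ones were Gata3, Gata5, Gata6, Sox7, Sox8, Sox12, Sox13, Tbx2 and Tbx22. Gata3, a factor of helper T cells, had 9 peaks over 28.9% of the gene in shGFP and 7 over 13.2% in shSuz12, beside 21.8% in ESC, 7.72% in MEF and none in brain and liver. Sox13 had 17 peaks in both libraries, yet they covered 50.5 and 23.2% of the gene, as their median width was 1068 bp in shGFP and 528 bp in shSuz12. Peaks were narrower over the whole shSuz12 list too, with a median of 564 bp against 776 bp in shGFP.

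Genes of the same families outside the symbol pattern, and known partners of these factors, were counted in the same way from a list of 20. Promoter peaks were found at 9 in ESC (45.0%, against 31.9% of all genes), 3 in MEF (15.0%, against 30.1%) and 3 in brain (15.0%, against 20.0%). In liver 4 had one (20.0%, against 29.4%), in shGFP 9 (45.0%, against 27.1%) and in shSuz12 7 (35.0%, against 21.4%). The ESC share was near the 50.0% of the members, so it was not particular to them. Those covered in ESC and in none of MEF, brain and liver were 5 of the 20 (25.0%, against 29.4% of the members and 7.62% of all genes). They were Hand1 (1997 bp), Nkx2-5 (1222 bp), Mixl1 (819 bp), Lmo2 (599 bp) and T (501 bp), regulators of heart, mesendoderm, blood and mesoderm. T, the founding T-box gene also called brachyury, had 843 bp covered in shGFP and 0 bp in shSuz12, while Nkx2-5 had 2000 and 949 bp. Trps1, Tal1, Ldb1, Zfpm1, Lef1 and Eomes had no promoter peak in any library.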

How the data were processed

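The data were 5hmC peak lists of 6 GLIB-Seq libraries, 1 per condition; the RNA-Seq samples were not analysed here. Reads had been aligned by the authors to mm9, reduced to uniquely mapped and non-redundant ones, and passed to MACS library by library; the submitters' processing notes name CASAVA 1.8, Bowtie 0.12.7 and MACS 1.4.1. Each deposited peak carries the score that MACS gave it, read here as 10 × the negative log10 of p. MACS thresholds and controls are not given in the sources used here, and the lists hold no read counts, so depth is unknown and no interval could be given.

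Peaks were set against the GENCODE annotation of NCBIM37 (mouse release 1), the same assembly as mm9, with a minimum overlap of 1 bp. Promoters were the TSS ± 1 kb, and genes were compared where at least 500 bp were covered in 1 of the 2 libraries, with a 2-fold difference as the call. No test was run, as each condition has 1 library. Sequences were read from the NCBIM37 genome. High-CpG promoters had a 500-bp window with an observed to expected CpG ratio above 0.75 and a GC content above 55%, and low-CpG ones had none with a ratio above 0.48.

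The members and lists were chosen with earlier results of these data known, and some genes that match the symbol pattern are not reported here. Values are given in full for members with a promoter peak in ESC and none in MEF, brain or liver, the 5 with most promoter bp in ESC, the 5 with the highest share of the gene covered in each of ESC, MEF, brain and liver, the 5 with the largest difference in promoter bp between shGFP and shSuz12 in each direction, and those with no peak. The alternatives were a score of at least 80 in every list, peak midpoints, promoters of 2 kb on each side and cover as a share of each list's total; leaving out chromosome X and using any annotated TSS were added once the data had been seen. The steps, in Python 3.11.15 with numpy 2.4.6, pandas 2.3.3 and matplotlib 3.10.9, were tested on simulated peaks, where the covered bp of 8366 of 8366 genes and 200 of 200 changed genes were recovered.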

Additional observations from a re-analysis of the deposited data

How the results depend on the processing

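No paired analysis was possible because there is 1 library a condition. Of 97 recomputed counts, 73 stayed within 1.5 times the reported one, and the cause of the other 24 was not tested. When a score of at least 80 was asked of each list, promoters with a peak numbered 1 in MEF, 1 in brain and 3 in shSuz12. Over all genes the shares were 12.0, 5.45 and 5.07% in the same order. Members with a peak in the gene numbered 12 in MEF, 10 in brain and 13 in shSuz12. Promoters covered in shGFP and not in shSuz12 numbered 13 and the reverse 0. The members at least 2-fold lower in ESC were then 2 against MEF and 1 against brain, and in shSuz12 against shGFP 1 was higher and 19 were lower. At that score the shSuz12 list kept 23594 peaks and the shGFP list 74496. For these 2-fold counts and the counts within genes, the shares of all genes at that score were not computed. They are therefore not a result about the members. With peak midpoints, 4 promoters had a peak in liver and 4 were covered in shGFP and not in shSuz12 (9.67% of all genes). With 2 kb on each side of the TSS, 13 promoters were covered in ESC and another of the 4 cell types. Promoters with a peak then numbered 9 in MEF and 11 in brain (42.1 and 32.3% of all genes). With any annotated TSS, a choice made after the data had been seen, they numbered 10 in MEF, 11 in brain, 11 in liver and 20 in shSuz12. These were 29.4, 32.4, 32.4 and 58.8% of the members, against 40.6, 34.9, 39.9 and 34.7% of all genes. ESC and shGFP each had 21 (61.8%), against 45.4 and 39.4% of all genes. By that choice 6 were covered in ESC and in none of MEF, brain and liver (6.40% of all genes) and 15 in ESC and another. In shGFP and not in shSuz12 there were 5 (12.0% of all genes). For the liver count by midpoints and the 2 counts in ESC and another, the shares of all genes were not computed. The unknown depth and the differing lowest scores of the lists limit every comparison between libraries.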
